A study of Mus musculus with 3 samples.

Results

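The extracellular and membrane-bound part of the WNT pathway was examined in 3 RNA-seq libraries of mouse ALSCs. The set held 50 protein-coding genes, chosen by name: the *Wnt* ligands, the *Fzd* (Frizzled) receptors, *Lrp5* and *Lrp6*, the *Dkk* and *Sfrp* antagonists, the *Rspo* (R-spondin) proteins with *Lgr4*, *Lgr5* and *Lgr6*, the ligases *Znrf3* and *Rnf43*, and *Porcn* and *Wls*. They were 50 of 21926 protein-coding genes and of 55421 named genes in the count table, and the rule uses names alone.

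ALSCs are stem cells derived from epiblasts of embryonic day 6.5 gastrulae and grown on fibronectin in N2B27 medium with Activin A and LIF. The embryos came from ICR females crossed with GOF/GFP transgenic males, with a mixed background. The transgene places GFP under regulatory sequence of *Pou5f1* (Oct4). Every library shared this cross. The study derived and characterized these cells and, among other questions, asked how they respond to WNT activation. The libraries analysed here were all of ALSCs in their own medium, so no treated or control group entered a comparison. The study calls the libraries biological replicates, but the labels do not say whether they were separate lines, and any spread between them may be in part technical.

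WNT proteins are secreted lipid-modified ligands. *Porcn* adds the lipid and *Wls* carries the ligand to the cell surface, where it binds a Frizzled receptor together with *Lrp5* or *Lrp6* and stabilizes β-catenin inside the cell. Sfrp proteins bind ligands outside the cell, *Dkk1* blocks *Lrp5* and *Lrp6*, and R-spondins act through *Lgr4*, *Lgr5* and *Lgr6* to restrain *Znrf3* and *Rnf43*, the ligases that remove Frizzled receptors from the membrane.

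Each library held between 18037342 and 18724038 counts on named genes. Levels are given as FPKM, here the count scaled to library size (CPM) per kilobase of gene length, so that genes can be compared per length. A gene was counted as at the floor when every library gave 3 counts or fewer, the limit that a count of 0 allows, and this covers counting error only. The labelled cell type carried its markers, with *Pou5f1* at 648 FPKM ± 25.3 (SD, n = 3) and 6 of 6 pluripotency genes at 1 FPKM or more. Of the primitive streak and mesoderm list 2 of 6 genes reached that mean level, *Foxa2* at 1.96 FPKM and *Eomes* at 1.32 FPKM, with *Mesp1* at the floor. None of 6 endoderm, 5 trophoblast and 6 fibroblast genes did so in every library, with the highest mean at 0.978 FPKM for *Amn*.

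The 50 members were unevenly used. 20 members reached 1 FPKM or more in all 3 libraries, against a background of 45.7% of protein-coding genes, so their share lay near the background. 7 members were at the floor (*Wnt1*, *Wnt3a*, *Wnt8b*, *Wnt10a*, *Dkk2*, *Dkk4* and *Rspo2*), where the background was 34.6%, and the other 23 lay between. The summed level of all members was 166 FPKM ± 20.1 (SD, n = 3), and 6 of them (*Lgr4*, *Fzd2*, *Sfrp1*, *Fzd7*, *Sfrp2* and *Lrp5*) made up 74.3% of it. The ligands contributed far less than receptors and antagonists: the Frizzled sum was 7.95 ± 0.432 (SD, n = 3) times the *Wnt* sum, and the *Sfrp* sum was 5.11 ± 0.341 (SD, n = 3) times the *Wnt* sum.

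**Figure D1:**
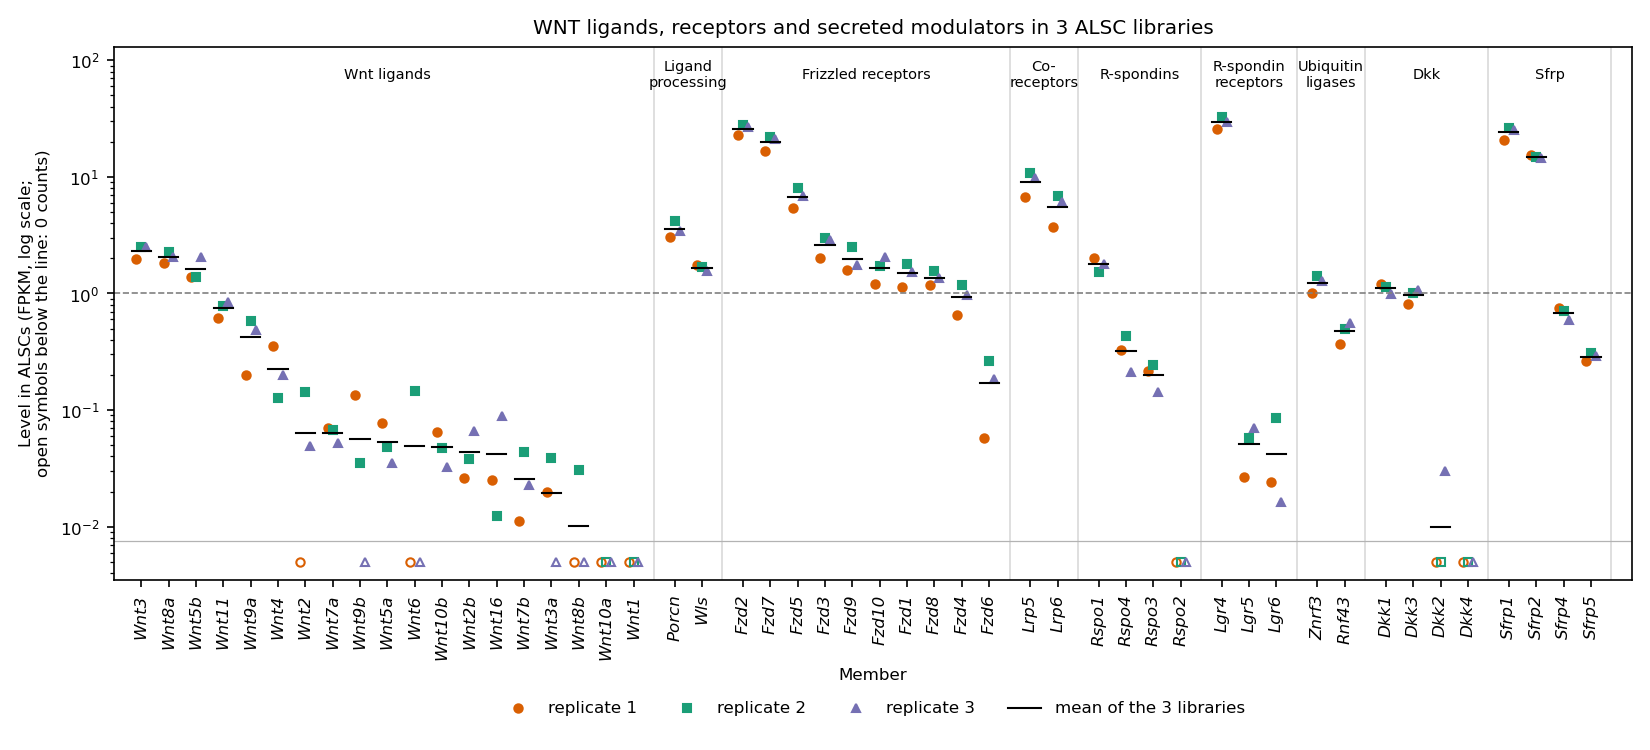
Level of each of the 50 members in FPKM on a log axis, grouped by role, with 1 point for each ALSC library, a bar at the mean of the 3 libraries, and libraries with 0 counts as open symbols below the solid line. The dashed line marks 1 FPKM; *Lgr4*, *Fzd2*, *Sfrp1*, *Fzd7* and *Sfrp2* lie above 10 FPKM in every library, while no ligand passes 3 FPKM.

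Because RNA abundance differed so widely among members, promoter sequences of 4 members are shown for reference: *Lgr4*, the highest member of the set, *Wnt3*, the highest ligand, and *Wnt3a* and *Wnt1*, a pair of ligands at the floor. They run from 250 bases before to 50 bases after the RefSeq start (GRCm38.p6), 5′ to 3′ along the gene, with each CG dinucleotide in capitals. 31 of the 50 members had an entry in the promoter table used here, which is not complete.
Lgr4 promoter, chr2:109917397-109917696, + strand: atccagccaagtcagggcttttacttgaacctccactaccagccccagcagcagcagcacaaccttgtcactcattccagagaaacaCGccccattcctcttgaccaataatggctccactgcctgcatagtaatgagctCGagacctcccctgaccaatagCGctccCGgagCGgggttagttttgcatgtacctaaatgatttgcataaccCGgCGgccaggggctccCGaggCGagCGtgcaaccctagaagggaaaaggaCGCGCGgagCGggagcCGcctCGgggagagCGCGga
Wnt3 promoter, chr11:103773925-103774224, + strand: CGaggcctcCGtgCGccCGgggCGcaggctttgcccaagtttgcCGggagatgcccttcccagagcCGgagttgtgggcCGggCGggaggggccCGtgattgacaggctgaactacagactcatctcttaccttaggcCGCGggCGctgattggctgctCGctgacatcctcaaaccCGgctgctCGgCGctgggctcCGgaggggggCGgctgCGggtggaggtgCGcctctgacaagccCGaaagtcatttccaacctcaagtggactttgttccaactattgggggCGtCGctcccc
Wnt3a promoter, chr11:59290702-59291001, - strand: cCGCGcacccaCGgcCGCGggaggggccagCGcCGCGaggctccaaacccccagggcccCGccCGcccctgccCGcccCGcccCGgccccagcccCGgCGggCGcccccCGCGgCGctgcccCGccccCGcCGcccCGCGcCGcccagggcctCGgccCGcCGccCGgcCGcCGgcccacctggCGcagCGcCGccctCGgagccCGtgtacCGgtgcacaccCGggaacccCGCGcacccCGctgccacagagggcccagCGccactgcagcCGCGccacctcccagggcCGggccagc
Wnt1 promoter, chr15:98789607-98789906, + strand: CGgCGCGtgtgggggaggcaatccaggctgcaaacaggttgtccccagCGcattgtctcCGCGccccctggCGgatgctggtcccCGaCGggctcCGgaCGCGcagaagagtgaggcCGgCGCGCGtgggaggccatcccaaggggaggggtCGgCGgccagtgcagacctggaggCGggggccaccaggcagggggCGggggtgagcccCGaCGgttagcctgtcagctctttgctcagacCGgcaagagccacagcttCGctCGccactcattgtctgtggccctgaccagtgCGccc

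The *Wnt3a* window held 45 CG dinucleotides, *Wnt1* 26, *Wnt3* 24 and *Lgr4* 18, and the pair at the floor held more than *Wnt3* and *Lgr4*. The other members at the floor with an entry, *Dkk2* with 11 and *Wnt8b* with 6, held fewer. Over the 31 members, taking the window with most CG where a gene had several, the median was 27 (range 6 to 58), and 25 of them were at or above 13, the median of 21262 protein-coding promoters (lower and upper quartile 4 and 24). That background counted every promoter of a gene separately. The median was 24 for the 11 members with an entry at 1 FPKM or more in all libraries, 30 for the 16 between and 18.5 (range 6 to 45) for the 4 at the floor. These medians did not change in 1 direction with the level, and a relation of CG to level was not tested. The letters CTTTGAT, the core bound by TCF/LEF factors, searched on both strands, occurred in 2 of 35 promoters of members (those of *Wnt11* and *Wnt5b*), and in 3.22% of the protein-coding promoters.

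Among the 19 ligands, 3 (*Wnt3*, *Wnt8a* and *Wnt5b*) reached 1 FPKM in all libraries, 12 lay between and 4 were at the floor. *Wnt3*, a ligand needed for primitive streak formation in the embryo, gave 1.98, 2.50 and 2.51 FPKM in replicates 1, 2 and 3 (2.33 ± 0.304, SD, n = 3), from 110, 144 and 139 counts. *Wnt8a* gave 1.84, 2.26 and 2.06 FPKM. *Wnt5b*, usually assigned to β-catenin-independent signaling, gave 1.40, 1.39 and 2.07 FPKM. The ranges of *Wnt3* and *Wnt8a* overlapped across libraries, although *Wnt3* was higher in 3 of 3, the ratio of *Wnt8a* to *Wnt3* being 0.886 ± 0.0551 (SD, n = 3). *Wnt8a* was above *Wnt5b* in replicates 1 and 2 and just below it in replicate 3, so the order of this pair was not resolved. *Wnt3*, *Wnt8a* and *Wnt5b* made up 29.6%, 26.1% and 20.5% of the ligand sum, which was 6.81, 8.29 and 8.51 FPKM in replicates 1, 2 and 3.

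Below them stood *Wnt11* at 0.615, 0.787 and 0.844 FPKM, a ligand of convergent extension movements, apart from *Wnt5b* above and from *Wnt9a* below. *Wnt9a* gave 12, 36 and 29 counts, or 0.199, 0.578 and 0.483 FPKM, and *Wnt4* gave 27, 10 and 15 counts, or 0.356, 0.127 and 0.198 FPKM. These ligands moved in opposite directions between libraries, *Wnt9a* being lowest and *Wnt4* highest in replicate 1. The other 9 ligands between 1 FPKM and the floor had means of 0.0258 to 0.0638 FPKM and no more than 11 counts in any library, and of the 15 neighbouring pairs in the order of the ligands 2 had ranges apart.

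*Wnt5a*, the close relative of *Wnt5b*, gave 11, 7 and 5 counts against 67, 69 and 99 for *Wnt5b*. *Wnt3a*, the relative of *Wnt3*, gave 1, 2 and 0 counts against 110, 144 and 139. At the floor, *Wnt1* and *Wnt10a* had 0 counts in every library, which allows up to 0.0690 and 0.0665 FPKM at 3 counts. For *Wnt5b* with *Wnt5a* and *Wnt3* with *Wnt3a*, 1 relative was thus well measured and the other near or at the limit of detection. *Wnt8a* and *Wnt8b* were likewise unequal. *Wnt9a* stood above *Wnt9b* in replicates 2 and 3, while replicate 1 gave close counts of 12 and 11. The relatives *Wnt2* and *Wnt2b*, *Wnt7a* and *Wnt7b*, and *Wnt10a* and *Wnt10b* were instead low on both sides, at no more than 6 counts in any library.

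Several ligand genes lie next to each other with no protein-coding gene in between, and the levels within some of these pairs were unequal. *Wnt9b* lies 24.3 kb from *Wnt3* on chromosome 11 and gave 11, 3 and 0 counts. *Wnt3a* lies 16.2 kb from *Wnt9a*, also on chromosome 11, with 1, 2 and 0 counts against 12, 36 and 29. The pair *Wnt10b* and *Wnt1*, 11.7 kb apart on chromosome 15, and the pair *Wnt6* and *Wnt10a*, 6.19 kb apart on chromosome 1, were low on both sides, at no more than 6 counts in any library.

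Both genes for ligand modification and export were present. *Porcn* gave 3.02, 4.22 and 3.42 FPKM (3.55 ± 0.610, SD, n = 3) and *Wls* gave 1.74, 1.69 and 1.55 FPKM (1.66 ± 0.0993, SD, n = 3). The ranges did not overlap, but the order depended on the gene length used: with the longest coding transcript in place of all exons, *Wls* stood at 4.11 FPKM and *Porcn* at 4.07 FPKM.

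The Frizzled family was the most fully used of the larger families, with 8 of 10 members at 1 FPKM or more in all libraries and none at the floor. *Fzd2* gave 22.7, 28.1 and 26.6 FPKM, and *Fzd7* gave 16.8, 21.9 and 20.98 FPKM. *Fzd2* was higher than *Fzd7* in each library, the ratio of *Fzd7* to *Fzd2* being 0.768 ± 0.0256 (SD, n = 3). *Fzd2* made up 41.2% and *Fzd7* 31.7% of the family sum of 62.6 FPKM ± 8.93 (SD, n = 3). *Fzd5* followed at 5.46, 8.02 and 6.85 FPKM, apart from *Fzd7* above and from *Fzd3* below.

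*Fzd3*, a receptor of planar polarity and axon guidance, gave 1.999, 3.00 and 2.85 FPKM. *Fzd9* gave 1.59, 2.52 and 1.77 FPKM, and *Fzd10* gave 1.21, 1.71 and 2.05 FPKM. *Fzd1* gave 1.15, 1.79 and 1.52 FPKM, and *Fzd8* gave 1.18, 1.55 and 1.35 FPKM. From *Fzd3* down to *Fzd4*, at 0.650, 1.18 and 0.965 FPKM, each range overlapped its neighbour's across libraries. Within each library *Fzd3* was the highest and *Fzd4* the lowest of these 6 receptors. *Fzd6*, at 0.0574, 0.266 and 0.184 FPKM from 5, 24 and 16 counts, stood apart as the lowest.

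**Figure D2:**
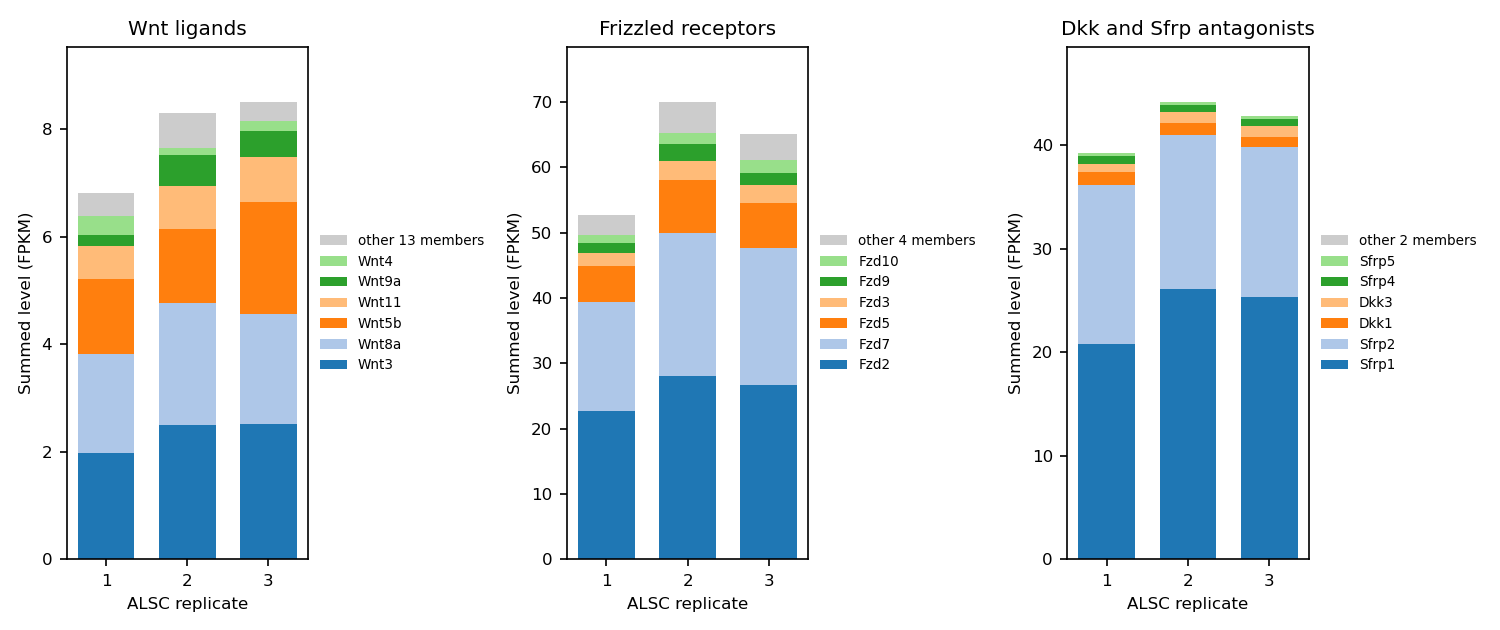
Summed level in FPKM for each of the 3 ALSC libraries, from left to right for the 19 *Wnt* ligands, the 10 Frizzled receptors and the 8 *Dkk* and *Sfrp* antagonists, with the 6 highest members of each in color and the rest in grey, on linear axes that start at 0 and differ in scale. *Fzd2* and *Fzd7* make up most of the Frizzled bar and *Sfrp1* and *Sfrp2* most of the antagonist bar, whereas *Wnt3*, *Wnt8a* and *Wnt5b* share most of the ligand bar, and replicate 1 is the lowest bar in each panel.

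The coreceptors were both present. *Lrp5* gave 6.73, 10.7 and 9.79 FPKM (9.09 ± 2.10, SD, n = 3), and *Lrp6* gave 3.72, 6.79 and 6.09 FPKM (5.53 ± 1.61, SD, n = 3). *Lrp5* was higher in 3 of 3 libraries, by 1.67 ± 0.123 (SD, n = 3) times, although the highest *Lrp6* value just exceeded the lowest *Lrp5* value. With the longest coding transcript as the length, *Lrp5* stood at 9.95 FPKM and *Lrp6* at 8.07 FPKM.

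Antagonists were dominated by a pair of *Sfrp* genes. *Sfrp1* gave 20.8, 26.2 and 25.4 FPKM and *Sfrp2* gave 15.4, 14.9 and 14.5 FPKM, and their ranges were apart. They made up 60.3% and 37.3% of the *Sfrp* sum of 40.0 FPKM ± 2.50 (SD, n = 3). *Sfrp4* and *Sfrp5* had means of 0.685 and 0.288 FPKM.

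The *Dkk* family summed to 2.09 FPKM ± 0.0741 (SD, n = 3), with no member at 1 FPKM in all libraries. *Dkk1*, the *Lrp5* and *Lrp6* antagonist, gave 1.21, 1.14 and 0.982 FPKM, and *Dkk3* gave 0.806, 1.02 and 1.07 FPKM. Their ranges overlapped. *Dkk2* gave 0, 0 and 2 counts and *Dkk4* gave 0 in every library. *Sfrp* transcripts thus outnumbered *Dkk* transcripts per length in 3 of 3 libraries.

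In the R-spondin branch 1 receptor held nearly the whole family signal. *Lgr4* gave 25.8, 32.7 and 29.8 FPKM (29.5 ± 3.47, SD, n = 3), more than 92.1% of protein-coding genes, and made up 99.7% of the *Lgr* sum. *Lgr5*, a marker of adult epithelial stem cells, gave 5, 11 and 13 counts, and *Lgr6* gave 3, 11 and 2 counts. Among the R-spondins themselves *Rspo1* gave 2.03, 1.54 and 1.77 FPKM and made up 77.3% of the family sum of 2.30 FPKM ± 0.233 (SD, n = 3). *Rspo4* and *Rspo3* had means of 0.322 and 0.200 FPKM with overlapping ranges, and *Rspo2* had 0 counts in every library. The *Lgr4* level was 12.96 ± 2.54 (SD, n = 3) times the R-spondin sum.

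The ligase *Znrf3* gave 1.00, 1.41 and 1.28 FPKM and *Rnf43* gave 0.371, 0.497 and 0.558 FPKM. Their ranges were apart, *Znrf3* being 2.61 ± 0.282 (SD, n = 3) times the level of *Rnf43*. With the longest coding transcript as the length, *Znrf3* stood at 1.54 FPKM and *Rnf43* at 0.723 FPKM.

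The 3 libraries did not give the members equal shares of their counts. In a chi-square test of homogeneity against TMM library sizes (Benjamini-Hochberg over all genes with at least 10 counts in total, threshold 0.05), which measures counting error only, 19 of 39 tested members varied, against a background of 47.2% of all genes tested. 15 of the 39 varied and were lowest in replicate 1, against a background of 22.1%. Between replicates 2 and 3 alone, 2 of 35 tested members varied (*Lgr4* and *Fzd5*, chi-square test, Benjamini-Hochberg adjusted p = 0.0234 and 0.0306), with a background of 8.11%. With the dispersion of replicates 2 and 3 added to the counting error 9 members varied, with a background of 25.6%: *Fzd3*, *Fzd4*, *Fzd5*, *Fzd6*, *Lrp5*, *Lrp6*, *Wnt4*, *Wnt9a* and *Wnt9b*. That dispersion, 0.00282, came from the pair of libraries most alike. It was 0.0235 over all 3 libraries, and 0.0307 and 0.0377 in the pairs that hold replicate 1. These calls thus mean variation beyond the spread of replicates 2 and 3 alone. Variation beyond the spread of all 3 libraries was not tested. By depth, 5 of 13 members varied at 10 to 100 counts in total, 6 of 17 at 100 to 1000 and 8 of 9 at 1000 or more, where the shares of all genes were 15.0%, 36.1% and 72.3%.

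The Frizzled and *Lrp* genes carried 11 of these 19 calls. 9 of 10 Frizzled genes varied (background 47.2%) and all 9 were lowest in replicate 1 (background 22.1%), *Fzd8* being the exception (chi-square test, Benjamini-Hochberg adjusted p = 0.254). *Fzd2*, *Fzd7*, *Fzd5*, *Fzd3*, *Lrp5* and *Lrp6* had 1000 or more counts in total, where 72.3% of all genes varied. For *Fzd5*, *Fzd7*, *Fzd3* and *Fzd2* the chi-square test gave Benjamini-Hochberg adjusted p = 1.02e-09, 1.35e-08, 1.59e-08 and 4.74e-05. *Fzd4* followed at 0.00131, *Fzd10* at 0.0118, *Fzd6* at 0.0130, *Fzd9* at 0.0320 and *Fzd1* at 0.0340 in the same adjusted chi-square test. With the dispersion of replicates 2 and 3 added, *Fzd2*, *Fzd7*, *Fzd9*, *Fzd10* and *Fzd1* no longer passed. Their Benjamini-Hochberg adjusted p in that chi-square test was 0.290, 0.0907, 0.0995, 0.0549 and 0.121. *Lrp6* gave the smallest adjusted p of all members, 5.08e-41 in the chi-square test after Benjamini-Hochberg adjustment, and *Lrp5* gave 1.15e-28. Both coreceptors were lowest in replicate 1.

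Outside the Frizzled and *Lrp* genes, *Lgr4* (adjusted p = 4.19e-11), *Sfrp1* (3.65e-07), *Wnt9a* (0.0166) and *Porcn* (0.0341) also varied and were lowest in replicate 1 in the chi-square test with Benjamini-Hochberg adjustment. *Wnt9b* (0.00178) and *Wnt4* (0.0134) were highest there, *Wnt5b* (0.0300) was highest in replicate 3 and *Lgr6* (0.0374) in replicate 2. For the 5 called members with under 100 counts in total, an exact multinomial test gave unadjusted p = 0.000303 for *Wnt9b*, 0.00284 for *Fzd6*, 0.0038 for *Wnt9a*, 0.00666 for *Wnt4* and 0.0228 for *Lgr6*. *Sfrp2*, *Wnt3*, *Wnt8a*, *Wls*, *Rspo1*, *Znrf3* and *Dkk1* did not pass the threshold.

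Replicate 1 differed from the others with gene length. The median log2 ratio of CPM + 0.5 of replicate 1 to the mean of replicates 2 and 3 was −0.24 over the 39 members and −0.003 over all genes tested (quartiles −0.27 and 0.24). Among members with 100 or more counts the ratio fell with length (Spearman rho −0.57 across 26 genes, which share libraries), as it did across 12402 genes (−0.60). The members were longer than the genes tested, with medians of 4197 and 3789 bases. After subtracting the median of the same of 20 length groups, the members' median was −0.21, and it was −0.21 after subtracting length and GC medians.

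The Frizzled genes lay below the medians of their length groups. Their median ratio was −0.40, and −0.34 after the length medians and −0.32 after the length and GC medians. On each of these scales 10 of 10 Frizzled members were below 0, *Fzd3* lying nearest to its length group at −0.019. Of all 39 tested members, 30 were below 0 after the length medians and 30 after the length and GC medians. The subtraction sets the median of all genes in each length group to 0, and every ratio rests on the same replicate 1. The part that length, RNA quality or the state of the cells had in the lower counts of replicate 1 was not tested.

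**Figure D3:**
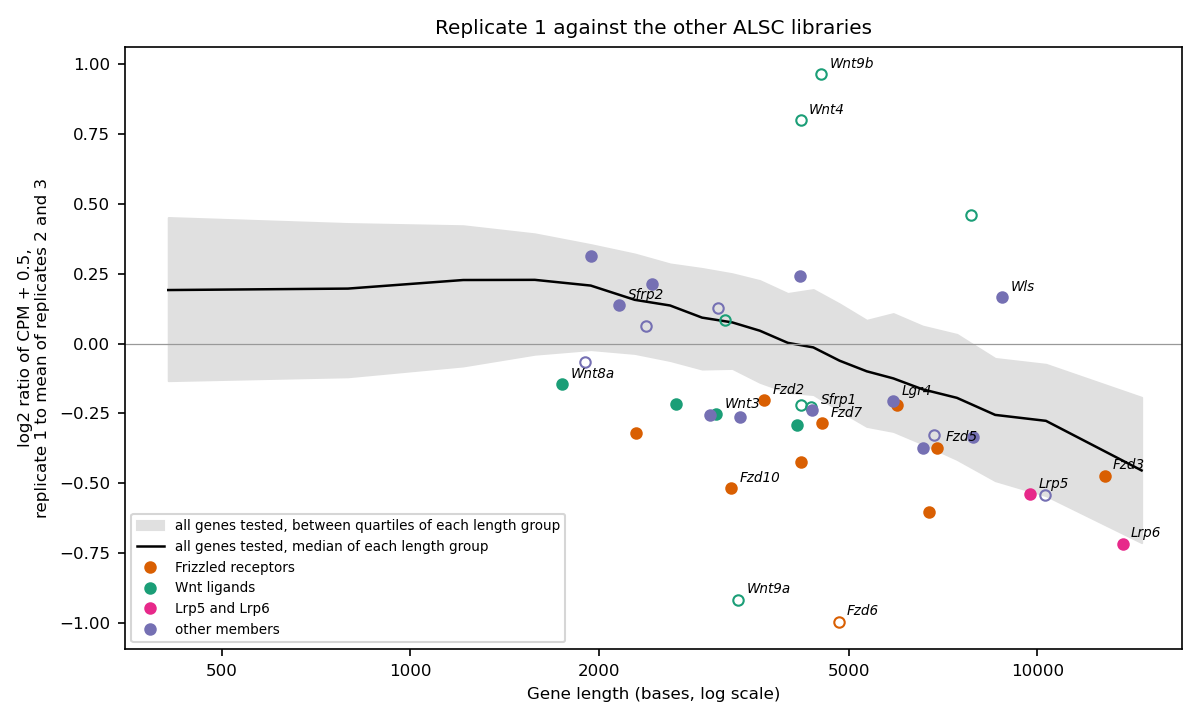
log2 ratio of CPM + 0.5 in replicate 1 to the mean of replicates 2 and 3 against gene length in bases (log axis) for the 39 members tested, with filled points at 100 or more counts in total and open points below. The black line is the median and the grey band the range between quartiles of all genes tested in 20 groups of length; all 10 Frizzled points lie below the line, and *Wnt9b* and *Wnt4* lie highest.

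The counts rest on sequence that is mostly private to each gene. At least 90% of the 50-base words were unique in 47 of 50 members, the exceptions being *Fzd5* (83.4%), *Sfrp2* (87.1%) and *Rspo3* (88.2%), which overlap a gene on the opposite strand. The kit does not mark strand, so reads there cannot be told apart. Those opposite genes had few counts of their own, with *Gm38058* opposite *Fzd5* at 0, 1 and 1, *Gm26771* opposite *Sfrp2* at 1, 6 and 6, and *Gm48159* opposite *Rspo3* at 0. The overlaps cover 17.8%, 16.1% and 13.1% of the exon bases of *Fzd5*, *Sfrp2* and *Rspo3*. Because the counting tool is not given, reads there may have been dropped from both genes. The low counts therefore do not show that the opposite genes were silent, and the 3 members may be undercounted.

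The rest of the pathway was given by 6 further lists, whose counts stand beside the backgrounds of 45.7% of protein-coding genes at 1 FPKM, 47.2% of tested genes that varied and 22.1% that varied and were lowest in replicate 1. Of the other extracellular modulators, 6 of 16 genes found reached 1 FPKM in all libraries, and 4 of 14 tested varied. The highest were the glypicans *Gpc3* at 42.3 FPKM ± 4.16 and *Gpc4* at 16.1 FPKM ± 0.890, and *Igfbp4* at 14.8 FPKM ± 0.934 (SD, n = 3). The antagonists *Wif1* and *Sost* were at the floor. Among secreted inhibitors the levels were unequal: *Igfbp4* stood near *Sfrp2*, *Cer1* at 5.14 FPKM, *Notum*, a ligand deacylase, at 0.221 FPKM and *Frzb* at 0.113 FPKM.

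Of 5 alternative receptors, 3 reached 1 FPKM in all libraries and 3 of 4 tested varied, 2 of them lowest in replicate 1. *Ptk7* stood at 49.7 FPKM ± 8.10, *Ryk* at 18.6 FPKM ± 1.22 and *Ror2* at 6.14 FPKM ± 0.839 (SD, n = 3), and *Musk* had 0 counts. *Ptk7*, a pseudokinase of planar polarity, was thus higher per length than any Frizzled receptor. In the planar polarity list 8 of 10 genes reached 1 FPKM and 5 of 9 tested varied (background 47.2%), all 5 lowest in replicate 1 (background 22.1%). The list's median log2 ratio was −0.22, against −0.19 for the medians of its genes' length groups. *Scrib* at 21.7 FPKM, *Vangl2* at 10.7 FPKM and *Dact2* at 7.76 FPKM led it, and *Celsr3* had 0 counts.

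The cytoplasmic relay was the most fully used list, with 12 of 13 genes at 1 FPKM or more. *Ctnnb1*, which encodes β-catenin, stood at 178 FPKM ± 25.4, *Tnks2* at 52.6 FPKM ± 6.82 and *Csnk1a1* at 39.5 FPKM ± 1.09 (SD, n = 3), and 12 of 13 genes varied, 11 of them lowest in replicate 1. At 1000 or more counts 72.3% of all genes varied, and the list's median log2 ratio of −0.30 lay near the −0.28 of its genes' length groups. Of 11 nuclear factors 9 reached 1 FPKM and 7 varied (background 47.2%), all 7 lowest in replicate 1 (background 22.1%), with a median log2 ratio of −0.23 against −0.19 for their length groups. *Tcf7l1*, a transcriptional repressor of the TCF family, stood at 28.4 FPKM ± 3.80, *Pygo2* at 21.7 FPKM ± 0.302 and *Tcf7* at 21.1 FPKM ± 2.16 (SD, n = 3), against 1.28 FPKM for *Lef1*.

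Of 16 feedback and target genes, 7 reached 1 FPKM in all libraries and 3 of 14 tested varied. *Ccnd1* stood at 22.8 FPKM ± 3.15, *Tcf7* at 21.1 FPKM and *Myc* at 6.23 FPKM ± 0.515 (SD, n = 3). *Axin2*, a feedback inhibitor induced by β-catenin signaling, gave 2.08, 2.75 and 2.63 FPKM, and *Nkd1* gave 1.64, 2.21 and 2.20 FPKM. *Sp5* and *T* had means of 0.945 and 0.754 FPKM, and *Cdx1* and *Cdx2* were at the floor. The list shares *Lgr5*, *Rnf43* and *Znrf3* with the members, *Tcf7* and *Lef1* with the nuclear list, and *Notum* and *Apcdd1* with the other extracellular modulators. The calls of *Tcf7* and *Notum* are thus each counted in both lists that hold them. *T* and *Cdx2* also stand in the cell type marker lists.

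**Figure D4:**
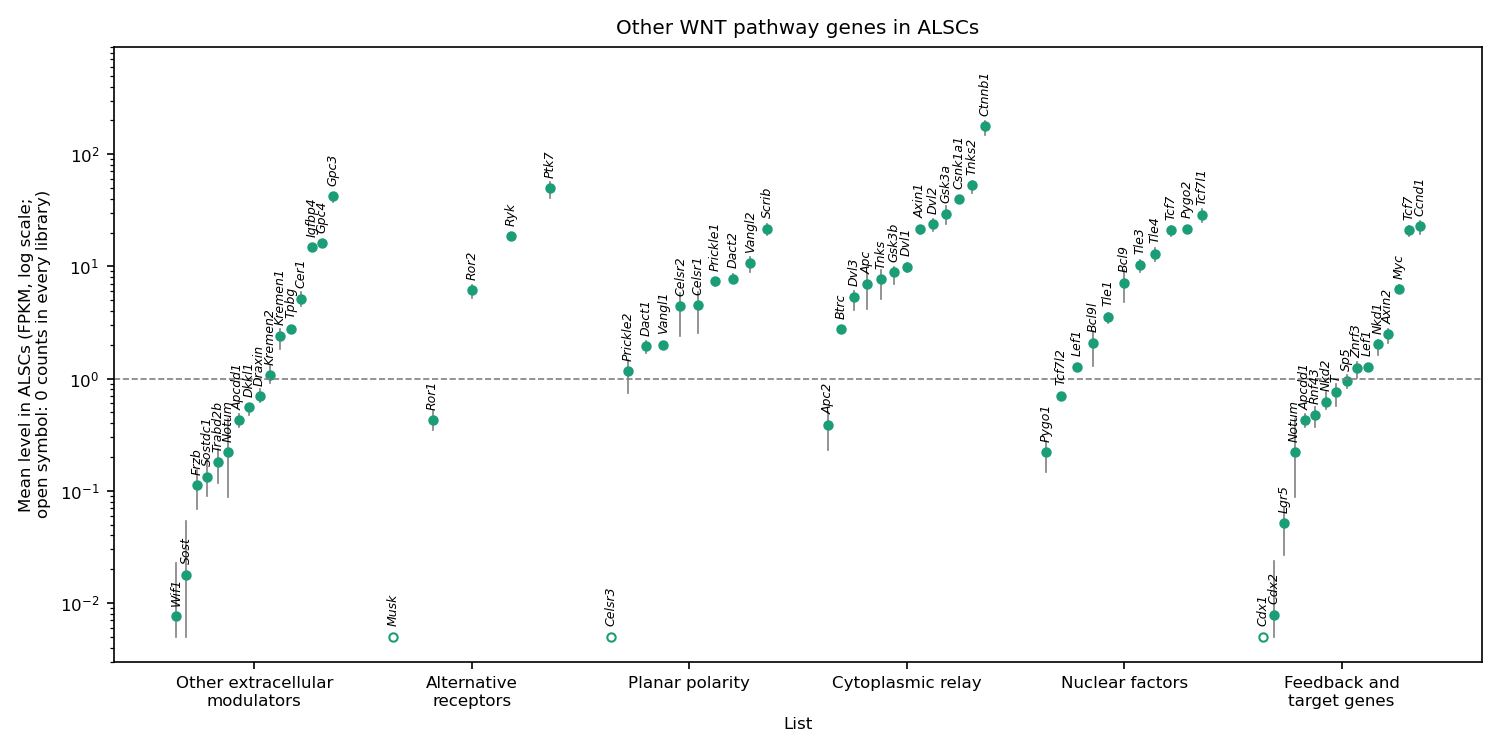
Mean level in FPKM on a log axis of the genes of 6 further WNT pathway lists in ALSCs, ordered by level within each list, with a line from the lowest to the highest of the 3 libraries (lines from a library with 0 counts start at the height of the open symbols) and open symbols for genes with 0 counts throughout. The dashed line marks 1 FPKM; *Ctnnb1* stands highest at 178 FPKM, and *Musk*, *Celsr3* and *Cdx1* had 0 counts.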

How the data were processed

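PolyA RNA of 3 ALSC samples was sequenced from libraries made with the TruSeq RNA kit, which does not mark strand. The authors deposited raw counts per gene. HISAT2 2.0.5 is named in the submitters' processing notes and GRCm38 in the study's methods, while the counting tool and its handling of multi-mapping reads are not given in the sources used here. 3 other columns of per-sample values, headed AF_SCs, matched no sample in the labels and were not used, and 317 rows with no gene name, 0.165% to 0.182% of counts, were left out. The gene length in the table equals the union of GENCODE vM21 exons for all 50 members.

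FPKM was computed from counts, lengths and totals. TMM and DESeq2 size factors and the dispersion came from edgeR 4.0.16 and DESeq2 1.42.0 in R 4.3.3. With 1 condition there was no contrast, so variation between libraries was tested by chi-square (SciPy 1.17.1) over 16944 genes with at least 10 counts, with Benjamini-Hochberg adjustment. The procedure was tried on simulated counts with counting error, set changes in 1 library or a small dispersion. Those counts held neither the dispersion over all 3 libraries nor the length trend of replicate 1, so they do not show how it behaves under these. Ratios used a pseudocount of 0.5 CPM.

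Per-library values are given for members with a mean of 1 FPKM or more, those that varied and the highest of each family, and for some others named beside a relative or neighbor, chosen after their values were seen. For each list the 3 highest genes and those at the floor are named, and other list genes given were likewise chosen after their values were seen. The members, lists and tests were chosen with earlier results of these data known. Neighbors in an order were called apart where no library of the lower gene reached the lowest library of the higher. Alternatives were other library sizes, TPM, other limits, another gene length and leaving out each replicate.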

Additional observations from a re-analysis of the deposited data

How the results depend on the processing

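Of the counts, sums and medians recomputed under the alternatives, 47 values stayed close and 9 moved. Only the 6 values of the median log2 ratio could change sign, and all 6 stayed close. The limit for counts was wide: the 15 neighboring pairs with ranges apart became 22 without replicate 2, which was scored as close. The number of members at 1 FPKM or more in all libraries was 9 at a level of 2 FPKM, and the number at the floor was 14 with a limit of 10 counts, 4 with a limit of 0, and 9 to 11 when each replicate was left out, the highest without replicate 2, where *Wnt2*, *Wnt6*, *Wnt7b* and *Lgr6* joined. In TPM the sums were 21.9 for the ligands, 174 for the Frizzled receptors and 117 for the antagonists, a change of unit that scales all genes of a library alike. The number of members that varied was 9 with the dispersion added, and 2 to 17 when each replicate was left out, 2 being the value without replicate 1. The gene length of the longest coding transcript and the GC correction were chosen after seeing the data, as was the exact test. Among single members checked with that length, the levels of 5 moved (*Lgr4*, *Lrp6*, *Sfrp2*, *Wls* and *Znrf3*) and 18 stayed close. No paired analysis was possible because the labels hold samples of ALSCs alone, with no other group to pair them with. At this depth 3 counts on a gene of 1 kb correspond to up to 0.166 FPKM, so levels below it were not resolved for short genes.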
